A study of Mus musculus with 2 samples.

Results

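The 53 Rab genes described here encode small GTPases of the Rab family. They are the gene symbols made of Rab, a number and an optional letter that had at least 50 UMIs (unique molecular identifiers, 1 per captured transcript) over both libraries of the series. In all 59 of 32285 listed genes had such a symbol, and 6 of them stayed under the limit: Rab3b with 39 UMIs, Rab25 with 21, Rab3c with 17, Rab39b with 15, Rab17 with 2 and Rab9b with 0. Just inside the limit were Rab40b with 62, Rab42 with 69 and Rab36 with 89. Summed UMIs therefore chose the members, and these totals are a description only. The working name of the set was the Rabs of phagosome and endosome, but the rule also takes Rabs of the endoplasmic reticulum, the Golgi and secretory granules, so the members were grouped into 7 lists by role.

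Cells were sorted as positive for CD45, CD11b and CD64 from the infarct and border zones of mouse hearts 3 days after myocardial infarction, and their 3′ transcript ends were counted in single cells. The groups were CD40 KO and wild type (WT), with 1 library each. The CD40 allele, the number, sex and age of the mice behind a library, and whether mice were pooled are not stated in the sources used here. The title of the series sets the comparison in the question of CD40 and efferocytosis, the uptake of dead cells by macrophages.

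Rab proteins act as membrane switches. An exchange factor loads a Rab with GTP, the loaded Rab sits on 1 kind of vesicle and recruits tethers and motors, and a GTPase-activating protein switches it off. A phagosome with an engulfed cell matures by passing through such identities, with Rab5 on the early vesicle replaced by Rab7 on the late one that fuses with lysosomes, while other Rabs return receptors to the surface.

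The CD40 KO-labelled library held 8146 barcodes and 90057108 UMIs, and the WT library 10624 barcodes and 139343516 UMIs. Cell types were set apart by marker genes, none of them a Rab. The macrophage gate held 2385 barcodes of the CD40 KO-labelled library and 5652 of WT, with medians of 16338 and 12713 UMIs. In it the transcripts of the sorted surface proteins were present in both libraries: Ptprc (CD45) at 573 CPM in the CD40 KO-labelled library and 504 CPM in WT, Itgam (CD11b) at 189 and 165 CPM, and Fcgr1 (CD64) at 173 and 197 CPM, where CPM is UMIs per 1000000 UMIs of the gate. Cd40 itself had 16.9 CPM in the CD40 KO-labelled library and 17.7 CPM in WT. The deleted part of the gene is not stated in the sources used here, and a 3′ count outside it checks nothing, so the first library is named by its label only. A further 4568 barcodes of the CD40 KO-labelled library, but 206 of WT, were poor in transcripts of long genes and were kept apart. The libraries shared 23 barcodes. With 1 library per group no test between groups was possible: intervals are exact 95% intervals that cover counting error only, and genes are called higher or lower by size, at 1.3-fold (0.38 on the log2 scale) and a mean of at least 5 CPM over both libraries.

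The promoters of 3 members on which the comparison of the libraries turns are printed here: Rab5c and Rab4b, the early endosome members that were lower in the CD40 KO-labelled library, and Rab5a, the paralog of Rab5c that lay within 1.3-fold. Each window runs from 250 bases before to 50 after a RefSeq transcript start (GRCm38.p6), 5′ to 3′ on the gene's strand, at chr11:100738166-100738465 on the minus strand for Rab5c, chr17:53478984-53479283 on the plus strand for Rab5a and chr7:27178834-27179133 on the minus strand for Rab4b. Capitals mark a match to TCACGTGA, the core of the CLEAR element, which TFE3 and TFEB bind upstream of lysosomal genes.
Rab5c: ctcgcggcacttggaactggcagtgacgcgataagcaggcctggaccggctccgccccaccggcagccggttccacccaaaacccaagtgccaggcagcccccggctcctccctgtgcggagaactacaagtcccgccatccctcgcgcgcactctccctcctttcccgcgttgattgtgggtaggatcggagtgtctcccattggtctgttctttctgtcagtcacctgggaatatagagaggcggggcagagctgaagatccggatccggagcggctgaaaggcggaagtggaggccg
Rab5a: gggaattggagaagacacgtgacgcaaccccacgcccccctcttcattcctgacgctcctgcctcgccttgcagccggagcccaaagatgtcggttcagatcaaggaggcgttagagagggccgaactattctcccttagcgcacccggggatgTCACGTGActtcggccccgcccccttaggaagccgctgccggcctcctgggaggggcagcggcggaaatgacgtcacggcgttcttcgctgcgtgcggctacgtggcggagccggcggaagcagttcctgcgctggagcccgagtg
Rab4b: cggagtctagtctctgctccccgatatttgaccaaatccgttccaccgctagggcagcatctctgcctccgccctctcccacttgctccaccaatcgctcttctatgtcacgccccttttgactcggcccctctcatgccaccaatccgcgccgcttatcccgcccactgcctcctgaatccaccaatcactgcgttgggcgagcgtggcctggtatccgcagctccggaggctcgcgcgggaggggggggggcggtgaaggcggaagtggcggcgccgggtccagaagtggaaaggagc
The match in Rab5a starts at base 155 of its window. The RefSeq table held 54 such windows of 42 members. The CLEAR letters, which read the same on both strands, were in 3 of the 54 windows, those of Rab5a, Rab21 and Rab24, or 5.56%, and in 0.974% of all 32851 windows. Other motifs were searched on both strands. The AP-1 letters TGANTCA were in 3.70% of member windows (Rab15 and Rab34) and 7.81% of all windows. The PU.1 letters GAGGAAGT were in 3.70% (Rab2b and Rab32) and 3.20%. The interferon-stimulated response element was in 1.85% (Rab19) and 3.44%. The NF-kB motif was in none of the member windows and in 0.411% of all. A match describes the letters of the window and is not a binding site.

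Macrophages held a wide range of Rab transcripts. The 53 members summed to 4718 CPM in the CD40 KO-labelled library and 4655 CPM in WT. Of the members, 35 reached a mean of 5 CPM and 14 lay at 100 CPM or more in each library. Counts of 3′ ends are not divided by gene length, so levels of different genes compare captured transcripts. Rab8b, a Rab of vesicle delivery to the surface, was first with 1060 CPM in the CD40 KO-labelled library and 887 CPM in WT, which made 22.5% and 19.0% of all Rab UMIs. It spans 76024 bases. In the barcodes poor in long-gene transcripts it had 436 CPM in the CD40 KO-labelled library, still first. In such barcodes of WT it had 298 CPM, below Rab5c at 375 CPM. The part of gene length in its level was not tested. In the macrophage gate the next levels followed at a distance. Rab2a, which works between endoplasmic reticulum and Golgi, had 357 CPM in the CD40 KO-labelled library and 352 CPM in WT. Rab7, the Rab of late endosomes and mature phagosomes, had 273 and 311 CPM. Rab1a, which acts at the exit from the endoplasmic reticulum, had 299 and 263 CPM. By the mean of both libraries, these were followed by Rab5c, which drives early endosome fusion, Rab10, which carries receptors to the surface, and Rab7b, a late endosome Rab of myeloid cells with 215 CPM in the CD40 KO-labelled library and 208 CPM in WT.

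Members of middle level covered each step of the endosome. Rab14, of endosomes and the trans-Golgi network, had 169 CPM in the CD40 KO-labelled library and 190 CPM in WT. Rab31, which acts between Golgi and endosomes, had 182 and 166 CPM. Rab11a, the main Rab of the recycling endosome, had 144 and 159 CPM. These neighbours in the order of levels did not overlap in their counting intervals within a library. Rab20, which takes part in phagosome maturation in mouse macrophages, had 132 CPM in the CD40 KO-labelled library and 163 CPM in WT. Its interval overlapped that of Rab11a in WT and that of Rab5a in the CD40 KO-labelled library. Among Rabs of lysosome-related organelles, Rab32 had 55.2 CPM in the CD40 KO-labelled library and 56.8 CPM in WT, and Rab38, its melanosome partner, had 0.467 and 0.692 CPM. Rabs of regulated secretion summed to 18.5 CPM in the CD40 KO-labelled library and 21.6 CPM in WT. Rab27b and Rab40b were the lowest members, between 0.0195 and 0.0778 CPM.

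**Figure D1:**
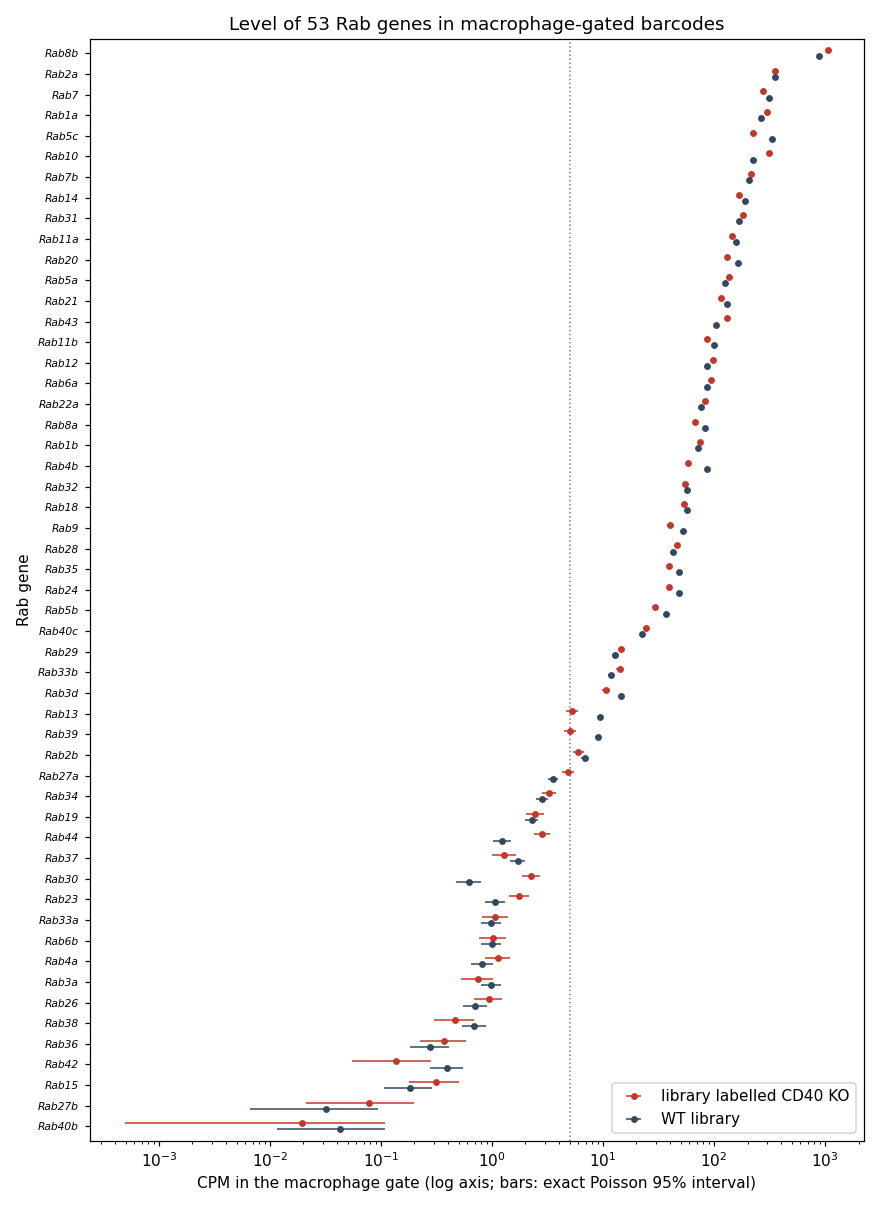
Levels of the 53 Rab genes in the macrophage gate (CPM, log axis), ordered by their mean, with the CD40 KO-labelled library in red above WT in dark grey, exact Poisson 95% intervals and a dotted line at 5 CPM. Rab8b stands alone at 1060 and 887 CPM, and the points of Rab5c, Rab10 and Rab4b separate between libraries.

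Between the libraries most Rab transcripts of the macrophage gate lay within 1.3-fold. Of the 35 measured members 1 was higher in the CD40 KO-labelled library, 6 were lower and 28 lay between. Over all 9082 genes measured, 19.9% were higher and 11.2% lower, so the 17.1% of members that were lower exceeded the share over all genes and the 2.86% that were higher fell short of it. The median log2 ratio was -0.09 for the members and 0.08 for all measured genes. With median-of-ratios scaling, which takes out this shift of 0.08, 1 member was higher and 10 were lower, beside 14.4% and 15.6% of all genes. Rab35, which recycles cargo to the surface, Rab20, Rab8a and Rab5b were the 4 added.

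The early endosome held the lower members of highest level. Rab5c (chr11:100715009-100738215, GRCm38) had 224 CPM in the CD40 KO-labelled library and 333 CPM in WT, a log2 ratio of -0.57 (-0.60 to -0.54). Rab4b (chr7:27168424-27178896), which returns cargo quickly from early endosomes to the surface, had 57.9 CPM in the CD40 KO-labelled library and 86.9 CPM in WT, a log2 ratio of -0.58 (-0.65 to -0.52). It was the 1 member called in all 17 alternative settings, and Rab5c was called in 16 of them, all but a 1.5-fold limit. Settings that changed only the minimum level reuse the same ratios and could not drop Rab4b or Rab5c. The paralogs of Rab5c differed from it. Rab5a had 136 CPM in the CD40 KO-labelled library and 126 CPM in WT, a log2 ratio of 0.11 (0.06 to 0.15), and Rab5b had 29.1 and 36.9 CPM, a log2 ratio of -0.35 (-0.43 to -0.26). The other measured early endosome members lay between -0.18 and 0.13 on the log2 scale: Rab21, known from integrin traffic, at -0.18, Rab22a at 0.10 and Rab31 at 0.13. Rab4a, the paralog of Rab4b, was near 1 CPM in both libraries. All 8 early endosome members together summed to 828 CPM in the CD40 KO-labelled library and 958 CPM in WT.

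Of the 6 late endosome members, 1 was lower and 5 lay between. Rab9, which returns receptors from late endosomes to the Golgi, had 39.7 CPM in the CD40 KO-labelled library and 52.7 CPM in WT, a log2 ratio of -0.41 (-0.48 to -0.34). This lies close to the 1.3-fold limit, and it was past it in 11 of 17 alternative settings. Rab7 was at -0.19 (-0.22 to -0.16) and Rab7b at 0.05 (0.01 to 0.08). Rab24, linked to autophagy, was at -0.30, and Rab12, linked to the breakdown of transferrin receptors, and Rab29, a partner of the kinase Lrrk2, were both at 0.18. Rab29 was low, with 14.5 CPM in the CD40 KO-labelled library and 12.9 CPM in WT.

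Among phagosome members, Rab39 (chr9:53684110-53706232), which acts in phagosome acidification and autophagy, had 5.04 CPM in the CD40 KO-labelled library and 9.03 CPM in WT, from 259 and 848 UMIs. Its log2 ratio was -0.84 (-1.05 to -0.64). Rab20 stood at -0.30 (-0.34 to -0.26), within the limit, although it was past it in 5 of 7 macrophage states. Rab43 was on the higher side, with 132 CPM in the CD40 KO-labelled library and 104 CPM in WT and a log2 ratio of 0.34 (0.30 to 0.39). It passed 1.3-fold in 3 of 17 alternative settings. Rab44 had 2.84 CPM in the CD40 KO-labelled library and 1.24 CPM in WT and Rab34 had 3.27 and 2.80 CPM. With Rab38 and Rab42 they stayed under the minimum level in the macrophage gate.

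Recycling members went both ways. Rab10 (chr12:3247428-3309969), which brings Toll-like receptor 4 to the surface of mouse macrophages, had 315 CPM in the CD40 KO-labelled library and 225 CPM in WT, a log2 ratio of 0.49 (0.46 to 0.52). Rab13, a Rab of junctions and exocytosis, had 5.24 CPM in the CD40 KO-labelled library and 9.38 CPM in WT, a log2 ratio of -0.84 (-1.04 to -0.64), from 269 and 880 UMIs. Rab8b was at 0.26, its paralog Rab8a at -0.30, Rab11a at -0.13 and Rab11b at -0.20. The paralogs of Rab8 lay on opposite sides of 0, but Rab8b was at 0.00 with the long-gene-poor barcodes put back, and it ranged up to 0.38 over the alternatives. Among secretory members Rab3d, a Rab of secretory granules, had 10.6 CPM in the CD40 KO-labelled library and 14.6 CPM in WT, a log2 ratio of -0.47 (-0.61 to -0.32), and it was the 1 measured member of that list. None of the 7 measured members of endoplasmic reticulum and Golgi passed 1.3-fold.

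Several values moved with the library beside these ratios. Genes that span at least 50 kb took 25.9% of macrophage UMIs in the CD40 KO-labelled library and 22.0% in WT. Of such genes 30.8% were higher in the CD40 KO-labelled library and 4.17% lower, against 15.4% and 14.1% of shorter genes. Rab10 spans 62542 bases and is 1 of 6 measured members of at least 50 kb. The 6 lower members are all shorter. An antisense gene, Rab10os, overlaps Rab10. Genes on the opposite strand also overlap the measured members Rab5a, Rab7, Rab20, Rab24, Rab6a, Rab2b, Rab11b and Rab40c. A gene on the same strand overlaps Rab18. Whether counting used the strand is not stated in the sources used here. Marker lists of macrophage states also differed: the 6 lipid-associated markers summed to 7656 CPM in the CD40 KO-labelled library and 19303 CPM in WT, the 5 Met/F13a1 markers to 2404 and 1084 CPM, and the 6 monocyte markers to 1322 and 742 CPM, with none of the markers at 0. With state shares made equal in both libraries, Rab10 was at 0.38, just under the limit, Rab3d and Rab9 both at -0.35, and Rab20 at -0.41, past it. Scaling to genes under 50 kb left Rab10 at 0.56 and Rab5c at -0.50. It takes the same shift of -0.07 off every log2 ratio, so it cannot show what the length of a single gene does. The part of gene length and of the antisense gene in the ratio of Rab10 was not tested.

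Rab5c and Rab4b were lower in every macrophage state. Barcodes of the gate were split by marker genes into 8 states, of which 7 had at least 200 barcodes in each library. In single states, 1 or 2 of 35 measured members were higher and 4 to 10 lower. The Met/F13a1 state had 1 higher and 4 lower, beside 16.0% and 10.4% of all genes. The state with lipid-associated and Met/F13a1 markers had 1 and 7, beside 14.8% and 11.6%, and the lipid-associated state had 1 and 4, beside 17.2% and 9.52%. The monocyte state had 2 and 9, beside 15.2% and 18.2%, and the interferon state 2 and 6, beside 21.6% and 14.5%. The MHC class II state had 2 and 10, beside 18.1% and 16.3%. The cycling state had 2 and 7, beside 21.9% and 10.9%, and the barcodes with no state marker 2 and 5, beside 17.3% and 11.2%. The share of higher members was below that of all genes in each state, and the share of lower members above it, but often by little. The lower share was near that of all genes in the Met/F13a1 state (11.4% and 10.4%) and the lipid-associated state (11.4% and 9.52%). It was also near in the barcodes with no state marker (14.3% and 11.2%) and the interferon state (17.1% and 14.5%). In the MHC class II state it was 28.6% beside 16.3%. Of the 33 members measured in all 7 states, Rab5c, Rab4b and Rab39 were lower in the CD40 KO-labelled library at 1.3-fold in the gate and in each state, and 0 were higher. Over the 8345 genes measured likewise, 2.23% were lower and 4.09% higher in every state. These comparisons share their barcodes with the gate, so they are not independent of it. With a stricter marker limit for the states, Rab5c was the 1 member left, and the share of all genes was not computed there.

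Rab5c ranged over the 7 states between 185 and 260 CPM in the CD40 KO-labelled library and between 292 and 358 CPM in WT. Rab5c, Rab4b and Rab39 are described here because each was lower at 1.3-fold in every state. Ranges that stay apart follow in part from that choice, and states of 1 library are not replicates. The log2 ratios of Rab5c lay between -0.66 in the MHC class II state and -0.46 in the state with both lipid-associated and Met/F13a1 markers. Rab4b had 52.2 to 62.6 CPM in the CD40 KO-labelled library and 81.4 to 90.6 CPM in WT, with log2 ratios between -0.65 and -0.51. Its level varied little between states within a library. Rab39 had 3.15 to 6.92 CPM in the CD40 KO-labelled library and 6.68 to 12.5 CPM in WT. Its ratios spread more widely, between -1.51 in the monocyte state and -0.46 in the interferon state. The state values of Rab39 rest on 16 to 137 UMIs each, and the intervals of the interferon and Met/F13a1 states included 0. In the eighth state, lipid-associated alone, which held 179 barcodes of the CD40 KO-labelled library and 1948 of WT, Rab5c was at -0.50, Rab4b at -0.43 and Rab39 at -0.52.

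Rab10 was on the higher side in all 7 states, between 0.18 in the Met/F13a1 state and 0.59 in the MHC class II state, and past 1.3-fold in 4. In the Met/F13a1 state it had 325 CPM in the CD40 KO-labelled library and 287 CPM in WT, and in the MHC class II state 380 and 253 CPM. The difference was smallest in the state that had the highest WT level, but the WT level is also the denominator of the ratio. This order did not hold over the states. The cycling state, with 203 CPM in WT, was at 0.48, below the MHC class II state. Rab20 was on the lower side in all 7 states and past the limit in 5. In the monocyte state it had 135 CPM in the CD40 KO-labelled library and 194 CPM in WT, and in the cycling state 110 and 127 CPM. Rab13 was lower at 1.3-fold in 4 of the 5 states where it was measured, Rab3d in 4 of 7 and Rab9 in 3 of 7. Rab7, Rab14, Rab21 and Rab11b lay on the lower side in all 7 states without passing the limit in any, and Rab1a and Rab8b on the higher side likewise.

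**Figure D2:**
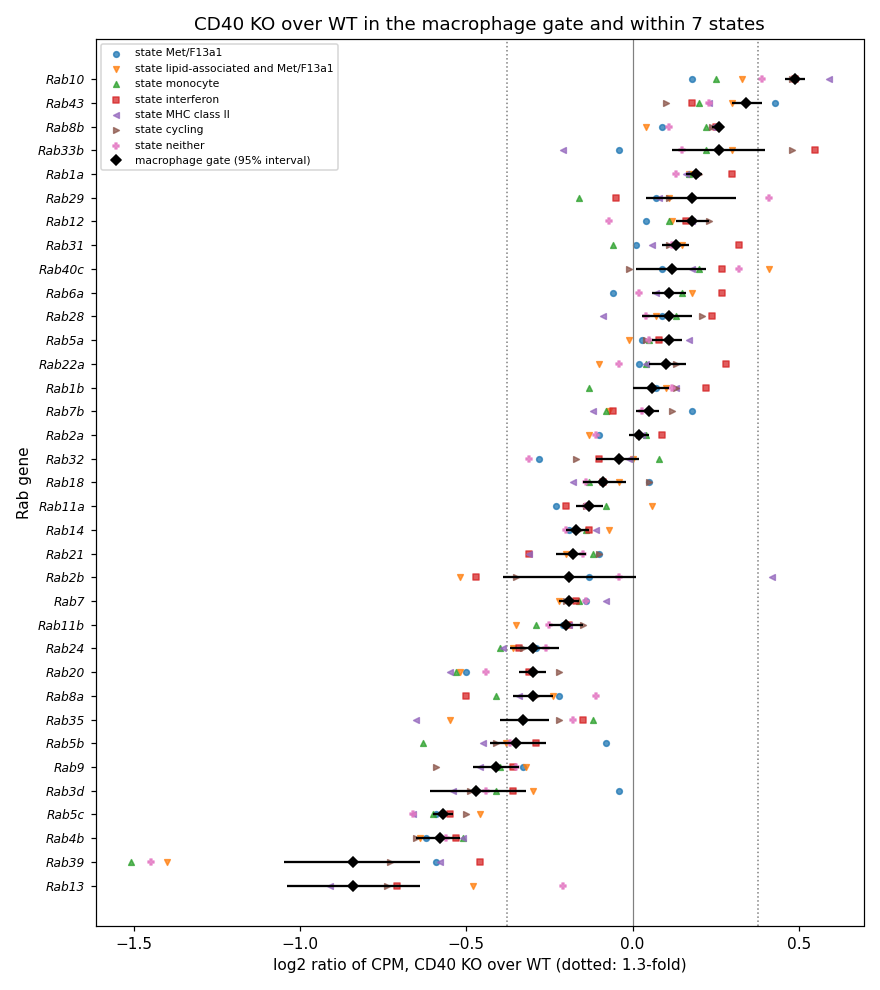
Log2 ratio of CPM, CD40 KO-labelled library over WT, for the 35 measured Rab genes: black diamonds give the macrophage gate with exact 95% intervals, coloured symbols the 7 states, and dotted lines 1.3-fold. Rab5c and Rab4b lie left of the line with all their states, from -0.66 to -0.46 and from -0.65 to -0.51, and Rab39 spreads out to -1.51.

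Rab levels in macrophages were also set against those in the other gated cells. A direction is given only where both libraries show it at 1.3-fold, and the same cells serve every member, so the counts describe these libraries. Here a member was measured where the mean of the macrophage gate and the other gate reached 5 CPM in both libraries. At least 5 UMIs also had to be expected in the other gate. A member under 5 CPM in 1 gate could pass only through its level in the other, which fixed its direction. The neutrophil gate held 53 barcodes of the CD40 KO-labelled library and 258 of WT, the dendritic gate 53 and 68, and the fibroblast gate 51 and 136. Macrophage markers were not at 0 in them: the 10 markers summed to 674 CPM in neutrophils of the CD40 KO-labelled library and 467 CPM in neutrophils of WT, against 5706 and 7604 CPM in the macrophage gate. What part RNA of other cells has in these levels was not tested.

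Against neutrophils, 7 of 29 measured members were higher in macrophages and 9 lower, beside 35.3% and 24.6% of all genes. The neutrophil members were led by Rab44, a large Rab linked to granule release in mouse mast cells. In the CD40 KO-labelled library it had 2.84 CPM in macrophages and 73.2 CPM in neutrophils, and in WT 1.24 and 74.6 CPM. It passed the minimum only through its neutrophil level. Rab8b reached its highest level of any gate in neutrophils, with 1060 CPM in macrophages and 2028 CPM in neutrophils of the CD40 KO-labelled library, and 887 and 1970 CPM in WT. It made about as large a share of Rab UMIs in neutrophils of both libraries, 32.3% and 32.6%. Rab20 was lower in macrophages, with 132 CPM against 329 CPM in the CD40 KO-labelled library and 163 against 374 CPM in WT. Rab7 was also lower, with 273 against 842 CPM in the CD40 KO-labelled library and 311 against 584 CPM in WT. On the other side was Rab7b, at 215 CPM in macrophages and 47.1 CPM in neutrophils of the CD40 KO-labelled library, and 208 and 27.4 CPM in WT, a log2 ratio of 2.19 (1.27 to 3.32) and 2.92 (2.26 to 3.68). Rab5c was higher in macrophages by 0.78 (0.22 to 1.41) and 0.95 (0.69 to 1.23) on the log2 scale. Rab7 and Rab7b, paralogs of the late endosome, therefore differed in opposite directions between these cells. Rab27a, which docks secretory granules, had 4.87 CPM in macrophages and 20.9 CPM in neutrophils of the CD40 KO-labelled library, and 3.54 and 48.7 CPM in WT, but rests on 4 neutrophil UMIs in the CD40 KO-labelled library.

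Against dendritic cells, 13 of 32 measured members were higher in macrophages and 3 lower, beside 26.4% and 16.9% of all genes. Rab7b was higher, by 2.78 (2.18 to 3.46) in the CD40 KO-labelled library and 1.65 (1.22 to 2.11) in WT on the log2 scale. Rab20 had 132 CPM in macrophages and 24.1 CPM in dendritic cells of the CD40 KO-labelled library, and 163 and 31.6 CPM in WT. Rab31 had 182 against 42.6 CPM in the CD40 KO-labelled library and 166 against 42.2 CPM in WT. The 3 lower members were Rab43, Rab10 and Rab22a. Rab43, which serves cross-presentation in mouse dendritic cells, had 132 CPM in macrophages and 236 CPM in dendritic cells of the CD40 KO-labelled library, and 104 and 312 CPM in WT. Rab10 had 315 against 462 CPM in the CD40 KO-labelled library and 225 against 343 CPM in WT. At 1.5-fold, Rab43 was the 1 of these 3 that remained lower in macrophages, and the share of all genes at that limit was not computed.

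Against fibroblasts, 13 of 38 measured members were higher in macrophages and 9 lower, beside 24.3% and 34.1% of all genes. Of the lower members, Rab34, Rab23, Rab15 and Rab30 were under 5 CPM in macrophages and passed the minimum only through fibroblasts. Rab7b had the highest ratio of the measured members in both libraries, with 215 CPM in macrophages and 18.5 CPM in fibroblasts of the CD40 KO-labelled library, and 208 and 17.5 CPM in WT. Rab8b had 1060 against 185 CPM in the CD40 KO-labelled library and 887 against 140 CPM in WT. Rab34, known from phagosomes and primary cilia, stood on the other side, with 3.27 CPM in macrophages and 59.0 CPM in fibroblasts of the CD40 KO-labelled library, and 2.80 and 76.7 CPM in WT. It had 0 UMIs in neutrophils of either library. Rab23, a regulator of Hedgehog signalling, had 1.75 against 25.6 CPM in the CD40 KO-labelled library and 1.07 against 28.4 CPM in WT. Rab13 and Rab15 were lower in macrophages as well. Rab5c, Rab7b and Rab1a were higher in macrophages than in each of the 3 other gates, and no member was lower than in all of them.

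**Figure D3:**
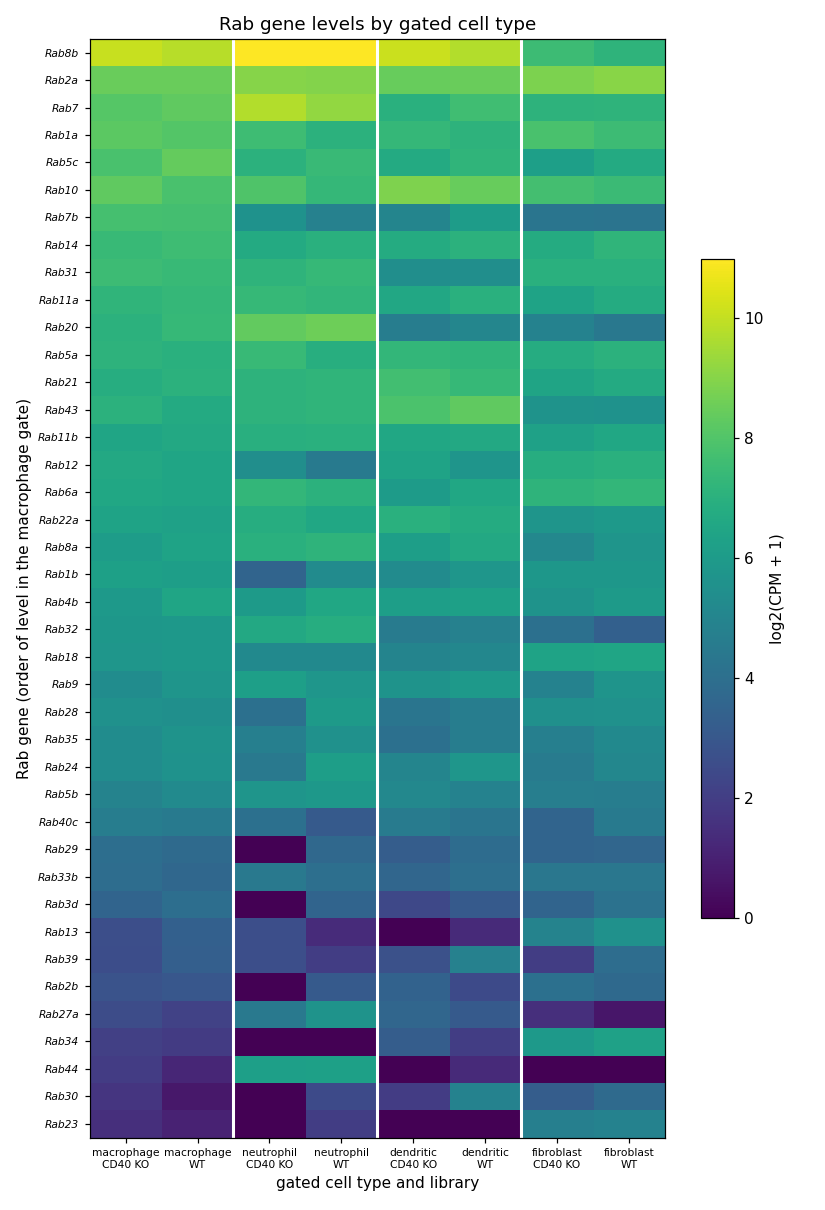
Levels as log2(CPM + 1) of the 40 Rab genes that averaged at least 5 CPM in the macrophage gate or reached 20 CPM in any of the 4 gates, with the CD40 KO-labelled library left of WT in each gate. Rab44 is bright in neutrophils (73.2 and 74.6 CPM), Rab34 and Rab23 in fibroblasts, and Rab7b in macrophages (215 and 208 CPM).

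Between libraries, the neutrophil, dendritic and fibroblast gates had few UMIs for most members. Macrophages with neutrophil transcripts, 294 barcodes of the CD40 KO-labelled library and 767 of WT, had 4 members higher and 8 lower of 37, beside 22.8% and 15.7% of all genes. Neutrophils had 7 higher and 7 lower of 30, beside 25.6% and 31.8%. Dendritic cells had 2 higher and 13 lower of 31, beside 21.4% and 28.5%. Fibroblasts had 3 higher and 16 lower of 43, beside 17.4% and 30.9%. Rab5c was lower in the CD40 KO-labelled library at 1.3-fold in each of these 4 gates. It had 212 CPM in the CD40 KO-labelled library and 312 CPM in WT in macrophages with neutrophil transcripts, 131 and 172 CPM in neutrophils, 105 and 145 CPM in dendritic cells, and 72.7 and 104 CPM in fibroblasts. The interval of its ratio included 0 in neutrophils (-1.08 to 0.24). Rab10 was higher in the first 3, with log2 ratios of 0.46 (0.38 to 0.53), 0.68 (0.15 to 1.19) and 0.43 (0.18 to 0.68), and stood at 0.22 in fibroblasts. Rab4b was lower by this size in macrophages with neutrophil transcripts and in neutrophils, at -0.61 and -0.57, and stood at -0.09 in dendritic cells and -0.32 in fibroblasts. Rab39 was lower in dendritic cells, from 4 and 18 UMIs, and in fibroblasts, from 5 and 49. Rab39 was at -2.26 (-4.28 to -0.65) and -2.24 (-3.92 to -0.92) in these gates. Whether any ratio differs between cell types was not tested.

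Proteins that switch or use Rabs were given by a list of 104 genes, 87 of them measured in the macrophage gate. Of these, 16 were higher in the CD40 KO-labelled library and 5 lower, with a median log2 ratio of 0.14, beside 19.9% and 11.2% of all genes and the median of 0.08. The shares of 18.4% and 5.75% were near or under those of all genes. With median-of-ratios scaling the counts were 8 and 11, beside 14.4% and 15.6% of all genes. Lrrk2, a kinase that phosphorylates Rab8 and Rab10 proteins among others, was highest, with 29.8 CPM in the CD40 KO-labelled library and 9.83 CPM in WT, a log2 ratio of 1.60 (1.48 to 1.72). Dennd5b, of the DENN family of Rab exchange factors, had 27.7 CPM in the CD40 KO-labelled library and 9.82 CPM in WT, with an interval of 1.37 to 1.62 on the log2 ratio. Rab11fip1, an effector of Rab11, had 203 and 118 CPM. Lowest were the TBC-domain proteins Tbc1d17, with 7.26 CPM in the CD40 KO-labelled library and 10.8 CPM in WT, and Tbc1d16, with 5.25 and 7.72 CPM. The TBC-domain family includes Rab GTPase-activating proteins. Tbc1d23, Tbc1d24 and Tbc1d2b, also named for the TBC domain, were higher. Rabac1, which binds prenylated Rabs at the Golgi, had 128 CPM in the CD40 KO-labelled library and 175 CPM in WT. Lrrk2 spans 142946 bases and Dennd5b 113610, both among the genes of at least 50 kb. With state shares made equal, 10 regulators were higher and 2 lower, beside 13.6% and 8.52% of all genes.

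**Figure D4:**
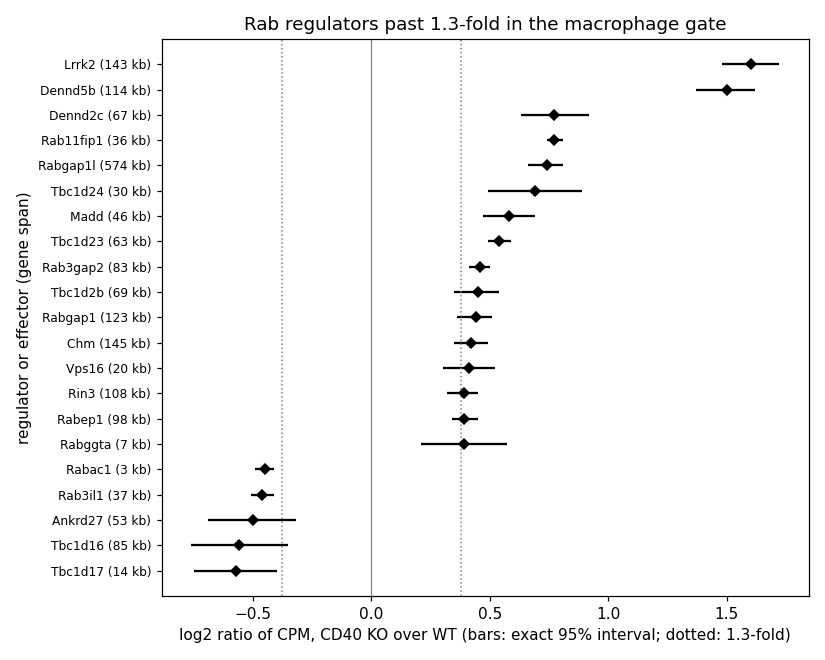
Log2 ratio of CPM, CD40 KO-labelled library over WT, in the macrophage gate for the 21 Rab regulators and effectors past 1.3-fold (dotted lines), with exact 95% intervals and the span of each gene in kb. Lrrk2, at 1.60, and Dennd5b stand apart, and 5 genes lie on the lower side.

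The 4568 barcodes of the CD40 KO-labelled library that were poor in transcripts of long genes were compared with its macrophage gate. They were set apart where UMIs of 18 short genes at least equalled those of 30 long genes, had a median of 3411 UMIs and 5.12% mitochondrial UMIs, and gave 13.6% of UMIs to genes of at least 50 kb, against 25.9% in the macrophage gate. Their macrophage markers summed to 7237 CPM and those of neutrophils to 1151 CPM, against 5706 and 320 CPM in the gate. Members summed to 3119 CPM in these barcodes and 4718 CPM in the gate. Of the 35 measured members 17 were lower, 2 higher and 16 between, beside 47.0% of all genes lower and 13% higher, so the share of lower members was near that of all genes. Rab8b had 436 CPM in these barcodes and 1060 CPM in the gate, and Rab10 had 141 and 315 CPM. Rab5c had 235 and 224 CPM, and Rab4b had 74.5 and 57.9 CPM, within 1.3-fold. The 2 higher members were Rab13 at 0.44 (0.14 to 0.73) and Rab24 at 0.39 (0.28 to 0.50) on the log2 scale. The gate that sets these barcodes apart uses long genes, and Rab8b and Rab10 span 76024 and 62542 bases. Put back into the macrophage gate, these barcodes left Rab10 at 0.24, Rab5c at -0.55 and Rab4b at -0.47.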

How the data were processed

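The kit was the Chromium 3′ v3 kit, according to the labels' protocols. The deposited counts are raw UMIs for each gene and barcode from Cell Ranger (version 7.0.1 in the file headers). STAR and mm10 are named in the submitters' processing notes. Barcodes with at least 1000 UMIs, 500 genes and at most 10% mitochondrial UMIs passed (7930 in the CD40 KO-labelled library, 8094 in WT) and gated by marker UMIs per 10000, with limits set after the marker levels, but not the Rab levels, had been seen. Barcodes passing more than 1 gate (337 and 570) were left out as possible doublets. Barcodes with short-gene UMIs at or above long-gene UMIs were kept apart. UMIs were summed per gate and library, scaled to CPM and compared by ratio, with exact Poisson and exact conditional (Clopper-Pearson) intervals. Gene spans came from GENCODE vM21 and promoters from RefSeq. The members and lists were chosen with earlier results of these data known. Named were members past 1.3-fold, the 10 highest, the highest per other gate, all of the early endosome, late endosome and phagosome lists, and the 2 highest and 2 lowest regulators; others were named after their values were seen. Software was scanpy 1.11.5 (Scrublet), scipy 1.17.1, numpy 2.4.6, matplotlib 3.10.9, pandas 2.3.3 and Python 3.11.15.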

Additional observations from a re-analysis of the deposited data

Results flagged for a closer look

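The ratio of Rab7 lay in opposite directions in 2 gates. In neutrophils it had 842 CPM in the CD40 KO-labelled library and 584 CPM in WT, a log2 ratio of 0.53, and in dendritic cells 124 CPM in the CD40 KO-labelled library and 194 CPM in WT, a log2 ratio of -0.65. The difference between the gates was not tested.

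In barcodes poor in long-gene transcripts, Rab43 and Rab8b stood above the same kind of barcode in WT. Rab43 had 84.1 CPM in the CD40 KO-labelled library and 38.5 CPM in WT, and Rab8b had 436 CPM in the CD40 KO-labelled library and 298 CPM in WT. These members were picked from a set that went both ways. All members together summed to 3119 CPM in such barcodes of the CD40 KO-labelled library and 3529 CPM in those of WT. Rab5c was on the lower side, with 235 and 375 CPM. WT held 206 such barcodes, with 68 UMIs of Rab43, against 4568 in the CD40 KO-labelled library. Genes of at least 50 kb took 13.6% of the UMIs of such barcodes in the CD40 KO-labelled library and 11.3% in WT. Rab43 and Rab8b also lay on the higher side in the macrophage gate, at 0.34 and 0.26. The share of all genes that differed likewise was not computed.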

How the results depend on the processing

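No paired analysis was possible because each group had 1 library. Of 604 values of single genes under alternatives, 473 stayed within their counting interval and 131 moved. The settings with another minimum level or fold limit reuse the same ratios, so their values, counted among the 473, could not move. No member past 1.3-fold changed sign, but 20 values of 11 other members did, all with ratios of at most 0.18 in size. Of these, 9 came with the long-gene-poor barcodes put back, among them Rab12 at -0.04, Rab31 at -0.08, Rab5a at -0.06, Rab22a at -0.08, Rab7b at -0.11 and Rab2a at -0.17. The count of 7 members past 1.3-fold (1 higher, 6 lower) was 5 to 8 in 14 of 17 settings. It was 11 with median-of-ratios scaling (10 lower), 12 with a minimum of 1 CPM (5 higher, with Rab23, Rab27a, Rab30 and Rab44 added, beside 25.9% of all genes higher and 11.1% lower) and 3 at 1.5-fold (0 higher and 3 lower: Rab13, Rab4b and Rab39, beside 9.27% and 3.67%). The higher count was 2, with Rab43 added, where barcodes weighed the same, were thinned to 3000 UMIs (81 barcodes of the CD40 KO-labelled library and 153 of WT left out) or were scaled to genes under 50 kb. Of all genes 19.8%, 21.4% and 26.0% were higher in these settings. The higher count was 0 with the long-gene-poor barcodes put back and with equal state shares, beside 13.3% and 13.6% of all genes. The 3 members lower in all states were 1 with the stricter gate, where the share of all genes was not computed. Regulators higher and lower, 16 and 5, were 8 and 11 with median-of-ratios scaling and 10 and 2 (12 in all) with equal state shares. Of all genes 14.4% were higher and 15.6% lower with that scaling, and 13.6% and 8.52% with equal state shares. At 1.5-fold, members lower in macrophages than in dendritic cells fell to 1 of 3, and those higher than in fibroblasts to 8 of 13. The shares of all genes at that limit were not computed for cell types. Removing the 503 and 524 barcodes with the highest Scrublet scores and leaving out shared barcodes left the counts of 7, 1 and 6 as they were, and other counts were not run under these settings. The limits of 0.5 and 2 on the short-over-long ratio, the minimum of 8000 UMIs, the shared barcodes and the 50 kb scaling were chosen after seeing the data. Neutrophils of the CD40 KO-labelled library held 191277 UMIs, so the exact interval of a member with 0 there reaches 19.3 CPM. Causes were not tested.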
